A study of Homo sapiens with 6 samples.

Results

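AP-1 is a family of transcription factors built from pairs of FOS, JUN and ATF proteins, and 10 of its genes were followed here in U87-MG cells, an established human glioblastoma line. The genes were FOS, FOSB, FOSL1, FOSL2, JUN, JUNB, JUND, ATF2, ATF3 and BATF3, taken by name because these factors are known to act on matrix metalloproteinase (MMP) promoters, out of 61731 genes and loci in the table. The libraries labelled as knockdown held more FOS, JUND, FOSL1 and FOSL2 mRNA than the negative control, by 1.34, 1.30, 1.14 and 1.13 times. No AP-1 gene passed the test as lower, although JUN did in 2 of 16 alternative fits. The 4 that passed were 40% of the 10 genes. Of all 13722 genes tested 36.1% passed, 12.1% as higher and 24% as lower. In the libraries labelled as knockdown the AP-1 target genes MMP1 and MMP3 were 12.7 and 12.5 times lower.

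Members of the FOS family cannot pair with each other and bind DNA as partners of a JUN protein, whereas JUN proteins can also pair among themselves and with ATF proteins. The FOS and JUN pairs prefer a heptamer, TGAGTCA or its reverse complement TGACTCA, and pairs with ATF2 prefer the octamer TGACGTCA. Many of these genes respond within minutes to growth factors, serum or stress through MAP kinases, and the proteins are further controlled by phosphorylation and turnover, which mRNA levels do not show. In glioblastoma and other invasive tumours AP-1 is known for driving proteases, cytokines and mesenchymal genes.

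The data were 6 RNA libraries of U87-MG cells, 3 of the group with the genotype label Normal control and 3 with the label CHRM Knockdown. By the study's methods the knockdown used a lentivirus with a sequence against CHRM3, the M3 muscarinic acetylcholine receptor, and all cells were grown in medium with serum. Neither the labels nor the methods say which of the KD sequences the sequenced cells carried, or whether a group's 3 libraries were grown separately, so the p-values measure the spread between these libraries, which may be technical. The comparison asks which mRNA levels differ between U87-MG cells with and without CHRM3 knockdown. Values are TPM, each transcript's share of its library after scaling for length, and they keep no read depth, so depth is unknown here.

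The target gene was near the lower end of the table. CHRM3 was 0.02, 0.09 and 0.13 TPM in control replicates 1, 2 and 3, and 0.13, 0.01 and 0.02 TPM in knockdown replicates 1, 2 and 3. The groups overlapped, and values this low cannot show a knockdown or its absence. Group membership in these data therefore rests on the labels, although the paper reports CHRM3 knockdown in U87-MG cells by separate assays. Higher or lower below always means in the knockdown-labelled libraries relative to the controls. Of 10 markers fixed for the line, VIM and CD44 were abundant, at 6574 and 597.3 TPM in the controls, while OLIG2, SOX2 and S100B stayed under 1 TPM in every library and GFAP was 1.16 TPM in the controls. Of 10 leukocyte markers 8 were under 1 TPM in every library, among them PTPRC, and CD3E and TYROBP were listed at 0 in all of them. The summed level of that list was 9.28 to 9.88 TPM in the controls and 12.36 to 14.09 TPM in the knockdown-labelled libraries, where CSF1R, the receptor of macrophage colony-stimulating factor, went from 5.44 to 9.17 TPM. Of 4 endothelial and 4 epithelial markers, KDR (3.37 and 1.40 TPM in the controls and knockdown-labelled libraries) and EPCAM (0.82 and 1.30 TPM) were the ones that reached 1 TPM.

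Sequence upstream of the genes shows where the AP-1 letters lie near genes that moved and genes that did not. RefSeq windows (build GRCh38.p14) of 250 bases before to 50 after each start were searched on both strands. Of the 10 AP-1 genes 7 had a window, all but FOSL1, ATF2 and BATF3, and so had 17 of the 27 target genes. The JUN window held TGACATCA, a variant octamer known from this promoter and searched because of it, on chr1:58784107-58784114, and the ATF3 window held it as well. The JUND window held the octamer TGACGTCA on chr19:18281815-18281822. The heptamer was in a window of 6 of the 17 target genes, and of 5.15% of the tested genes with a window. The list was made of known AP-1 targets, so a higher share could be foreseen and is not a finding about these libraries. The heptamer stood upstream of CXCL8 and PLAUR, which fell, and of IL11 and GJA1, which rose. The other two were MMP7, with means of 0.797 and 0.543 TPM in controls and knockdown-labelled libraries, and IVL, with 0.187 and 0.0633 TPM, both without overlap of the groups but too low to be tested. Each run below is printed 5′ to 3′ on the strand of its gene, with the matched letters in capitals and flanks of 20 bases.
JUN, chr1:58784087-58784134, minus strand: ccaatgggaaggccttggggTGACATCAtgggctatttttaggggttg
ATF3, chr1:212565264-212565311, plus strand: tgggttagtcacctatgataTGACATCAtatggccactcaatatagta
JUND, chr19:18281795-18281842, minus strand: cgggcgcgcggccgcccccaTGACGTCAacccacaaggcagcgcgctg
CXCL8, chr4:73740412-73740458, plus strand: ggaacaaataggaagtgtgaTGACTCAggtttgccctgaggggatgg
PLAUR, chr19:43670329-43670375, minus strand: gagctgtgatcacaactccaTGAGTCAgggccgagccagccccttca
IL11, chr19:55370533-55370579, minus strand: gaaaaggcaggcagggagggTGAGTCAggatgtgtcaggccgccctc
GJA1, chr6:121435578-121435624, plus strand: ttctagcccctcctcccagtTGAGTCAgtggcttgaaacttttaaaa

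Genes averaging 1 TPM or more across all libraries were tested, 13722 in number, and all 10 AP-1 genes were among them. In the controls FOSL1 was the most abundant at 495.4 TPM, followed by JUN at 205.1, JUNB at 90.5, JUND at 54.16, FOS at 49.19, FOSL2 at 42.41, ATF3 at 16.87, BATF3 at 10.93, ATF2 at 10.34 and FOSB at 6.31 TPM. Neighbours in this order did not overlap in the controls except BATF3 and ATF2. In the knockdown-labelled libraries the order was the same down to ATF3, JUND and FOS overlapped, and ATF2 stood above BATF3 with overlapping values.

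**Figure D1:**
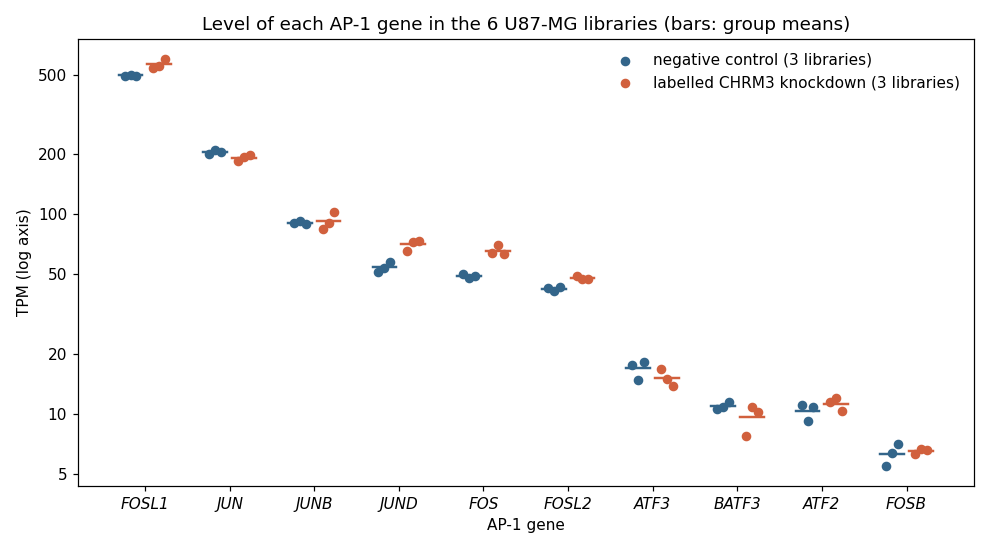
TPM on a log axis for each AP-1 gene, with a point for each library (blue for the 3 controls, orange for the 3 knockdown-labelled libraries) and a bar at each group mean. FOSL1 is the highest of the 10 in every library, and the groups are apart for FOSL1, JUN, JUND, FOS and FOSL2.

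FOS encodes c-Fos, the founding member of its family, and lies on chromosome 14 from 75278774 to 75282230 (GENCODE 29, GRCh38, plus strand). Its level was 50.32, 48.00 and 49.24 TPM in control replicates 1, 2 and 3, and 64.07, 69.81 and 63.18 TPM in knockdown replicates 1, 2 and 3. Every knockdown-labelled library was above every control. The means were 49.19 ± 1.16 and 65.69 ± 3.60 TPM (SD, n = 3 each), a log2 fold change of 0.41 (SE, the standard error, 0.045, with an adjusted p of 0.000857 by limma). This was the largest rise among the 10 genes. All log2 fold changes here are differences of log2(TPM + 1), tested with limma across the 13722 genes, with Benjamini-Hochberg adjustment, and a gene is said to rise or fall at an adjusted p under 0.05.

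FOSL1 encodes FRA1, which lacks the strong activation domain of c-Fos and is known to accumulate under sustained ERK signalling. The gene lies on chromosome 11 from 65892049 to 65900573, on the minus strand. Its 3 controls were 494.98, 498.39 and 492.85 TPM, and the knockdown-labelled libraries were 537.69, 555.25 and 597.59 TPM. The groups did not overlap, and the controls were close together, with a coefficient of variation of 0.564%, against 5.46% among the knockdown-labelled libraries. FOSL1 rose by a log2 fold change of 0.18 (SE 0.0381, with an adjusted p of 0.0111 by limma), and by 0.14 without knockdown replicate 3, its highest library. In TPM this was the largest difference of the family, from 495.4 ± 2.79 to 563.5 ± 30.8 TPM (SD, n = 3 each). A processed pseudogene, FOSL1P1, was listed at 0 to 0.08 TPM.

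FOSL2 encodes FRA2, the closest relative of FRA1, and lies on chromosome 2 from 28392448 to 28417312. It was 42.75, 41.32 and 43.17 TPM in the controls and 49.06, 47.09 and 47.47 TPM in the knockdown-labelled libraries. The groups did not overlap, and their SDs were 0.970 and 1.05 TPM. FOSL2 rose by a log2 fold change of 0.17 (SE 0.0327, with an adjusted p of 0.00815 by limma). The heptamer also occurred in the window of FOSL2.

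FOSB, on chromosome 19 from 45467995 to 45475179, is the member of the family best known from nerve cells under repeated stimulation. Its values were 5.50, 6.39 and 7.04 TPM in the controls and 6.26, 6.69 and 6.59 TPM in the knockdown-labelled libraries. The knockdown-labelled values lay inside the range of the controls. The log2 fold change was 0.04 with a 95% interval from -0.17 to 0.26 (adjusted p = 0.738 by limma).

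JUN encodes c-Jun, the main partner of FOS proteins and the classic substrate of the JNK kinases. It is a gene of 1 exon on chromosome 1 from 58780788 to 58784327, on the minus strand. Its controls were 201.25, 210.05 and 204.04 TPM, and the knockdown-labelled libraries were 183.71, 192.92 and 198.86 TPM. The groups did not overlap, but the gap between them was 198.86 to 201.25 TPM. The log2 fold change was -0.10 (95% interval from -0.18 to -0.01), and the adjusted p of 0.0696 by limma missed the threshold. It passed without knockdown replicate 3, with an adjusted p of 0.0411, and with mitochondrially encoded genes left out, with 0.0425. After median-of-ratios scaling it was -0.03 with an adjusted p of 0.597.

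JUND, on chromosome 19 from 18279760 to 18281622, is the JUN gene usually described as present in resting cells, where it can restrain growth. It was 51.05, 53.74 and 57.69 TPM in the controls and 65.57, 72.50 and 73.33 TPM in the knockdown-labelled libraries. Every knockdown-labelled library was above the highest control. JUND rose from 54.16 ± 3.34 to 70.47 ± 4.26 TPM (SD, n = 3 each), a log2 fold change of 0.37 (SE 0.0608, with an adjusted p of 0.00422 by limma).

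JUNB is an immediate early gene of 1 exon whose protein often opposes c-Jun. It lies on chromosome 19 from 12791496 to 12793315, and its exon overlaps an exon of HOOK2 on the other strand. Its controls were 89.83, 92.01 and 89.66 TPM, and the knockdown-labelled libraries were 84.40, 90.44 and 102.51 TPM. The knockdown-labelled libraries lay on both sides of the controls, with a coefficient of variation of 9.97% against 1.45%. The log2 fold change was 0.03 (95% interval from -0.14 to 0.19, adjusted p = 0.802 by limma) and turned to -0.05 without knockdown replicate 3. HOOK2 was 6.35 to 9.73 TPM, and the strand used in counting is not given in the sources used here.

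ATF2, ATF3 and BATF3 did not pass the test, and their groups overlapped. ATF2, a factor present before stimulation and switched on by JNK and p38 kinases, lies on chromosome 2 from 175072250 to 175168382. It was 11.04, 9.15 and 10.83 TPM in the controls and 11.44, 11.99 and 10.28 TPM in the knockdown-labelled libraries, with a log2 fold change of 0.11 (95% interval from -0.10 to 0.32, adjusted p = 0.374 by limma). ATF3, a stress-induced factor on chromosome 1 from 212565334 to 212620777, was 17.63, 14.77 and 18.20 TPM against 16.68, 14.92 and 13.83 TPM. Its interval ran from -0.38 to 0.09 (adjusted p = 0.299 by limma). BATF3, on chromosome 1 from 212686418 to 212699985 and best known from dendritic cells, pairs with JUN proteins. It was 10.56, 10.79 and 11.45 TPM against 7.76, 10.85 and 10.25 TPM, where knockdown replicate 1 stood below the rest, and its interval ran from -0.46 to 0.10 (adjusted p = 0.283 by limma).

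Of the 10 AP-1 genes 4 rose and 0 fell. Over all 13722 genes tested 12.1% rose, 24% fell and 36.1% did either. The median log2 fold change was 0.08 for the AP-1 genes and -0.06 for all genes tested. After median-of-ratios scaling 2306 genes rose and 2249 fell, in place of 1660 and 3295, and the AP-1 counts stayed at 4 and 0. No AP-1 gene reached a log2 fold change of 1 or -1, which 1.87% of the tested genes did with an adjusted p under 0.05. The groups did not overlap for 5 of the 10 genes, against 50.2% of all genes tested. In RNA from bulk cells, more cells with a transcript and more transcript per cell cannot be told apart.

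**Figure D2:**
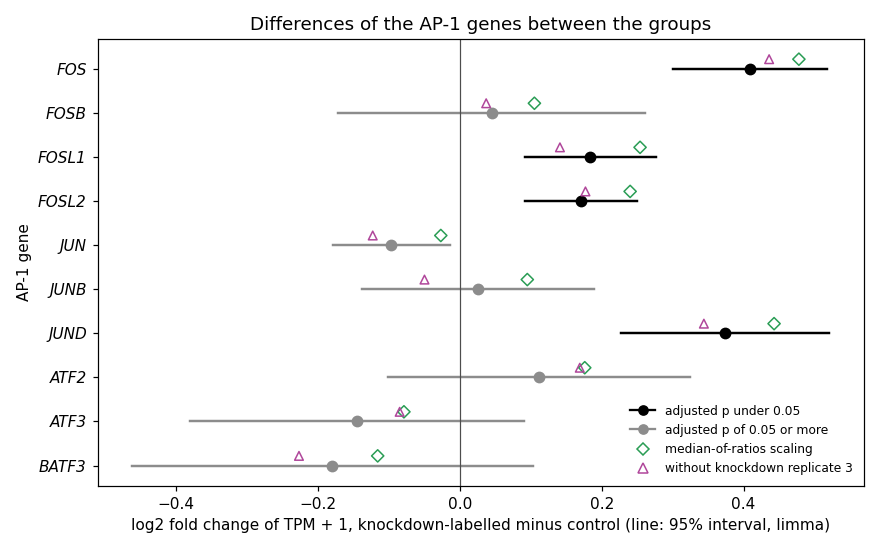
Log2 fold change of TPM + 1 (knockdown-labelled minus control) on the x axis for each AP-1 gene on the y axis, with the 95% limma interval as a line, black where the adjusted p was under 0.05. Open diamonds give the value after median-of-ratios scaling and open triangles the value without knockdown replicate 3; FOS, JUND, FOSL1 and FOSL2 stay above 0 throughout, and JUNB changes side without that replicate.

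The make-up of the families was set by few genes. The 4 FOS genes summed to 593.6, 594.1 and 592.3 TPM in the controls and to 657.1, 678.8 and 714.8 TPM in the knockdown-labelled libraries. The sum was 15.2% higher on average, or 21.0% after median-of-ratios scaling. FOSL1 made up 83.5% ± 0.352 of it in the controls and 82.41% ± 1.03 in the knockdown-labelled libraries (SD over the 3 libraries of a group), and those shares overlapped. The share of FOS was 8.29% ± 0.200 and 9.62% ± 0.731 (SD, n = 3 each), without overlap.

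The 3 JUN genes summed to 342.1, 355.8 and 351.4 TPM in the controls and to 333.7, 355.9 and 374.7 TPM in the knockdown-labelled libraries. These sums overlapped, while the make-up shifted. JUN took 58.64% ± 0.509 of the sum in the controls and 54.11% ± 0.996 in the knockdown-labelled libraries (SD over the 3 libraries of a group), and JUND took 15.48% ± 0.816 and 19.86% ± 0.442. Neither share overlapped between the groups, and the share of JUNB did. The FOS sum was 1.67 to 1.74 times the JUN sum in the controls and 1.91 to 1.97 times in the knockdown-labelled libraries. These sums and shares are descriptions without a test.

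**Figure D3:**
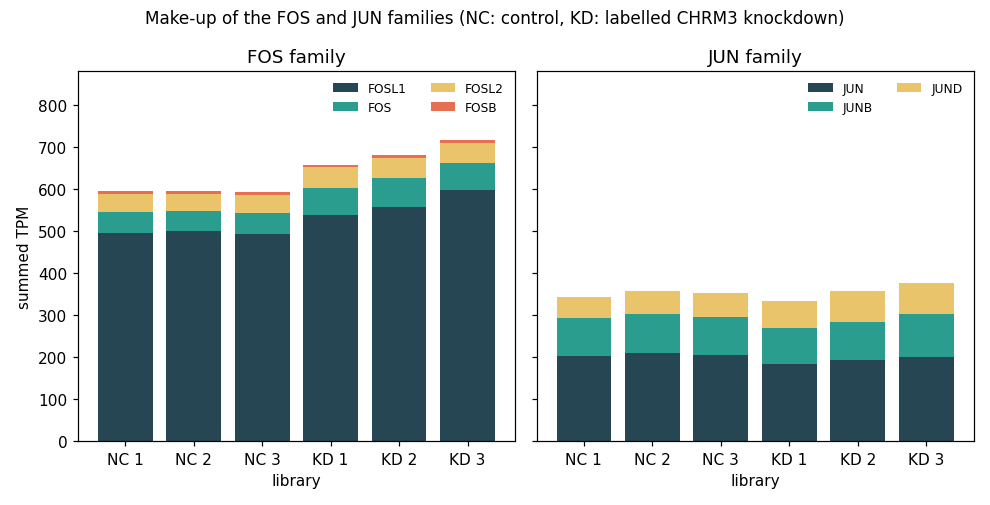
Summed TPM on the y axis for each of the 6 libraries, stacked by gene, with the FOS family on the left and the JUN family on the right. The FOS sums are 592.3 to 594.1 TPM in the controls and 657.1 to 714.8 TPM in the knockdown-labelled libraries, with FOSL1 as the largest block, and the JUN sums overlap.

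The coefficient of variation, the SD as a percentage of the mean, was higher in the knockdown-labelled libraries than in the controls for 5 of the 10 AP-1 genes, against 53.7% of all genes tested. These were FOSL1 (0.564% and 5.46% in controls and knockdown-labelled libraries), JUNB (1.45% and 9.97%), FOS, JUN and BATF3. It was lower for FOSB (12.3% and 3.45%), ATF2 and ATF3, and lower by little for FOSL2 (2.29% and 2.18%) and JUND (6.17% and 6.05%). Knockdown replicate 1 was the lowest of its group for 6 of the 10 genes, against 33.9% of all genes tested. CEBPB, another bZIP factor, had 50.80, 61.25 and 77.40 TPM in the knockdown-labelled libraries against 71.22 to 74.33 TPM in the controls, so that its group straddled the controls as JUNB did. The labels do not say whether these libraries stand for separate KD sequences.

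The target list held 27 genes known as AP-1 targets, and 22 of them were tested. Of these 14 fell and 6 rose, with a median log2 fold change of -0.43 against -0.06 over all genes tested. Calls were thus made in 90.9% of the tested targets, against 36.1% of all genes. By direction 63.6% fell and 27.3% rose, against 24% and 12.1% of all genes tested. At a limit of 5 TPM, which leaves out low genes, 17 of 18 tested targets passed, against 4492 of 9806 genes. Several of the targets were known to differ when the list was written, so these counts are not independent evidence of their direction.

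The falls were led by secreted proteases and cytokines. The interstitial collagenase MMP1 was 108.68 to 113.81 TPM in the controls and 8.33 to 9.01 TPM in the knockdown-labelled libraries. The interleukin IL1B was 9.30 times lower and the neutrophil chemokine CXCL8 4.21 times lower, with log2 fold changes of -3.13 and -2.06. MMP3, MMP10, MMP12 and TIMP1, the last an inhibitor of metalloproteinases, also passed a log2 fold change of -1, which made 7 targets in all. TIMP1 went from a mean of 1798 TPM in the controls to 548.5 TPM. MMP10 and MMP12 were low, with means of 3.26 and 2.01 TPM in the controls and 0.15 and 0.36 TPM in the knockdown-labelled libraries. Smaller falls were those of SPP1 (osteopontin), from 566.3 ± 12.3 to 355.5 ± 1.29 TPM, and of the cell cycle gene CCND1, from 311.0 ± 1.26 to 214.7 ± 2.57 TPM (SD, n = 3 each). PLAUR, the urokinase receptor, was 334.19 to 338.02 TPM in the controls and 260.33 to 270.57 TPM in the knockdown-labelled libraries, a log2 fold change of -0.34 (adjusted p = 8.13e-05 by limma).

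Other targets moved the opposite way. PLAU, the urokinase that binds PLAUR, rose from 286.3 ± 5.05 to 355.1 ± 5.56 TPM (SD, n = 3 each), a log2 fold change of 0.31 (adjusted p = 0.000145 by limma). GJA1, the gap junction protein connexin 43, was 86.15 to 88.87 TPM in the controls and 116.83 to 120.99 TPM in the knockdown-labelled libraries. IL11, a cytokine of the IL-6 family, was 1.69 times higher, and so was the chemokine CCL2. HBEGF and TGFB1 rose by 0.46 and 0.19 on the log2 scale. VEGFA, at 304.8 ± 7.04 and 313.2 ± 1.17 TPM (SD, n = 3 each), was the most abundant target that did not pass (95% interval from -0.01 to 0.09, adjusted p = 0.206 by limma).

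**Figure D4:**
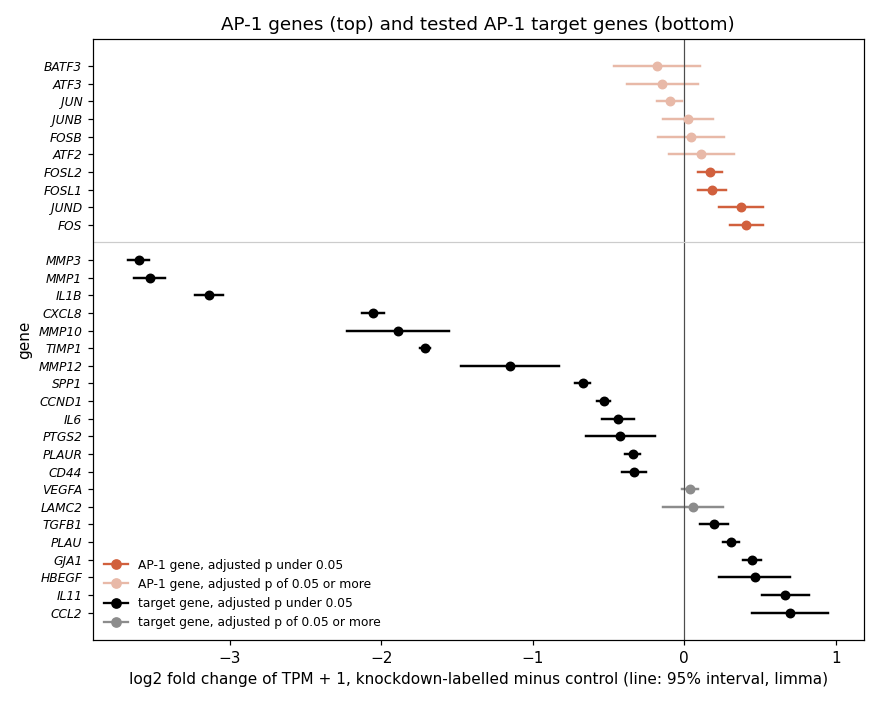
Log2 fold change of TPM + 1 (knockdown-labelled minus control) on the x axis, with 95% limma intervals, for the 10 AP-1 genes in orange above and 21 of the 22 tested target genes in black or grey below. The AP-1 genes lie between -0.18 and 0.41, whereas the targets run from -3.60 for MMP3 to 0.70 for CCL2.

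Of 35116 RefSeq windows 4.95% held the heptamer, and of the 9878 tested genes with a window 5.15% did, or 509 genes. Among these 509 genes 29.7% fell and 16.3% rose, against 25.8% and 13.2% of the tested genes with a window. The median log2 fold change was -0.06 in both. A log2 fold change of at least 1 or at most -1 was called for 21 of the 509 genes, or 4.13%, against 1.41%, with 12 lower and 9 higher. Chosen after their values were seen, the lower ones included IL1RN, the interleukin-1 receptor antagonist, from 17.46 ± 1.03 to 4.70 ± 0.148 TPM, and the higher ones CA9, a carbonic anhydrase known from hypoxia, from 49.58 ± 1.78 to 160.4 ± 1.99 TPM (SD, n = 3 each). The octamer TGACGTCA was in 1.85% of the windows and in 400 tested genes, of which 23.2% fell and 12.0% rose. The JUN octamer, TGACATCA or its reverse complement TGATGTCA, was in 2.61% of the windows and in 195 tested genes, of which 24.6% fell and 16.4% rose, a share of rises like that of the heptamer. Neither octamer contains the heptamer, and a match of letters is not a site shown to be bound.

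Among 27 related bZIP genes, which can pair or compete with AP-1 proteins, 21 were tested, and 6 fell and 5 rose (5 and 6 after median-of-ratios scaling). These were 28.6% and 23.8% of the tested genes of the list, against 24% and 12.1% of all genes tested. The largest rise was that of CREB5, a relative of ATF2, from 4.10, 4.53 and 5.06 TPM in the controls to 9.27, 7.65 and 7.86 TPM, a log2 fold change of 0.73 (SE 0.0991, with an adjusted p of 0.00197 by limma). CEBPD, a factor of the acute phase response, rose by 0.60 on the log2 scale. JDP2, a repressor that pairs with JUN proteins, was 5.39 to 7.93 TPM in the controls and 8.83 to 11.05 TPM in the knockdown-labelled libraries (adjusted p = 0.0444 by limma), a call lost in 9 of 16 alternatives, with the replicate block and without any single library other than control replicate 1 among them. The falls included MAFK, ATF5 and CREB3, by log2 fold changes of -0.45, -0.40 and -0.41. BATF, of the same family as BATF3, was listed at 0 in every library. CEBPB was the most abundant of these genes that did not pass (adjusted p = 0.25 by limma).

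Of 24 MAP kinases and inducers of FOS, 20 were tested, and 9 fell and 3 rose, or 45% and 15%, against 24% and 12.1% of all genes tested. Without control replicate 3 the counts were 4 and 3, and after quantile normalization 5 and 3. MAPK8, which encodes the kinase JNK1, fell from 20.19 ± 0.473 to 15.76 ± 1.79 TPM, while MAPK9, which encodes JNK2, rose from 15.69 ± 0.212 to 18.09 ± 0.512 TPM (SD, n = 3 each). MAPK14 (p38 alpha) fell by a log2 fold change of -0.31. The call of MAPK8 was lost without control replicate 1 or 3, and that of MAPK14 without control replicate 1 or 3 or knockdown replicate 1 or 2 and after median-of-ratios or quantile scaling. Among the MAP2K genes, MAP2K1 rose by 0.23 and MAP2K3 fell, with a log2 fold change of -0.32. MAP2K4 and MAP2K7 fell as well, by log2 fold changes of -0.303 and -0.215 (adjusted p of 0.0243 and 0.0423 by limma). Of the factors that bind the FOS promoter, SRF rose from 21.26 ± 0.465 to 25.36 ± 0.241 TPM, and its partners ELK1 and ELK3 fell, by log2 fold changes of -0.34 and -0.36. MAP2K2, at 214.7 and 205.0 TPM, was the most abundant that did not pass (adjusted p = 0.107 by limma).

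Other immediate early genes answer the same stimuli as FOS and JUN. Of 26 listed 21 were tested, and 8 fell and 8 rose, or 38.1% each way, against 24% lower and 12.1% higher among all genes tested. CCN2, a matricellular growth factor, had the largest fall, from 42.06, 42.11 and 42.50 TPM to 24.16, 24.08 and 23.23 TPM, a log2 fold change of -0.80 (adjusted p = 1.76e-05 by limma). BTG2, GADD45B and IER5 fell by log2 fold changes of -0.70, -0.50 and -0.35. KLF4, RHOB and ZFP36 rose by 0.50, 0.39 and 0.38, close to FOS, although KLF4, at 2.54 TPM in the controls, lost its call without any single library other than control replicate 1. EGR1, which shares with FOS its control by SRF, was 9.41 to 10.02 TPM in the controls and 9.86 to 10.39 TPM in the knockdown-labelled libraries (95% interval from -0.09 to 0.16, adjusted p = 0.656 by limma). GADD45A, at 97.1 and 86.25 TPM, was the most abundant that did not pass (adjusted p = 0.0512 by limma).

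Over the 6 libraries, the genes whose log2(TPM + 1) was most like that of FOS were SEMA4B, FIBP and DGCR6L, with Pearson's r of 0.9966, 0.9966 and 0.9964 among 7646 tested genes averaging 10 TPM or more. These points fall into 2 groups, so that any gene with a clear difference between them scores high, and the values are a description. No AP-1 gene fell past the threshold, so none was followed in that direction.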

How the data were processed

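RNA of 3 control and 3 knockdown-labelled U87-MG libraries was measured. The authors deposited TPM per gene and library, rounded to 2 decimals, in 1 table, in which 0 columns were without a sample. The submitters' processing notes name fastp, RSEM and the build GRCh38.p13. The aligner, annotation and filters are not given in the sources used here, and the paper and the labels name different library kits. Symbols were matched for 61369 of 61541 Ensembl identifiers, and 190 MSTRG loci carry none. Depth cannot be had from TPM, so no counting error is given.

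Tests used limma 3.58.1 under R 4.3.3 on log2(TPM + 1) (lmFit, eBayes with trend, group as the only term) over genes averaging 1 TPM or more, with Benjamini-Hochberg adjustment at 0.05 over all of them. The code was tested on simulated data. Members, lists and tests were chosen with earlier results of these data known. All members are described, along with list genes by rule (passing genes, the largest changes, the most abundant that did not pass). Alternatives varied the pseudocount (0.1, 0.5), the limit (none, 0.1, 5 TPM), the scaling, the trend and a replicate block, and left out each library in turn. Coordinates of genes are from GENCODE 29 and promoter windows from RefSeq, and figures were drawn with matplotlib 3.10.9. A few genes of the lists are counted but not reported here.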

Additional observations from a re-analysis of the deposited data

How the results depend on the processing

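FOS, FOSL1, FOSL2 and JUND rose past the threshold in all 16 alternatives run, with log2 fold changes of 0.37 to 0.48, 0.14 to 0.25, 0.15 to 0.25 and 0.33 to 0.44. The count of AP-1 genes past it was 4 or 5, and 0 of them passed the fold limit in any. JUN was -0.109 and past the threshold with mitochondrially encoded genes left out. Across the fits that left out one library each, the log2 fold change was -0.123 to -0.066 for JUN (past the threshold without knockdown replicate 3), -0.037 to 0.116 for FOSB (negative without control replicate 1) and -0.05 to 0.089 for JUNB (negative without knockdown replicate 3), the change of the summed JUN family was -1.43% to 4.43% (negative without knockdown replicate 3), and the count of kinases and FOS inducers was 7 to 11 against 12. The summed FOS family was 21.0% higher after median-of-ratios scaling, which raises all knockdown-labelled values relative to the controls. The causes of the other shifts were not tested. Same-numbered libraries did not deviate together (correlations of -0.02, 0.034 and 0.033). These correlations rest on deviations within groups of 3 libraries, so they cannot show whether same-numbered samples were handled as pairs. With the replicate block 4 AP-1 genes passed, as without it, and FOS had an adjusted p of 0.00838 by limma; JDP2 lost its call with it. The depth of the libraries is unknown, and levels near 0.01 TPM have little precision.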
